A study of Mus musculus with 21 samples.

Results

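mt-Rnr1, mt-Rnr2 and Gm42418 are genes of the cortex table that carry ribosomal RNA (rRNA) sequence, and they were followed library by library 24 h after high-frequency head impact (HF-HI). They are 3 of the 5544 genes listed, were found by gene symbol, and had been picked for their large differences between HF-HI and sham mice. The size of those differences is therefore given as a description with no test, and tests were kept for how the transcripts varied among mice of the same group and for other genes. All mice were male C57BL/6 aged 12 weeks. The 11 HF-HI mice were struck on the head repeatedly in daily sessions under isoflurane, and the 10 sham mice were anesthetized and handled alike but not struck. The cortex was taken 24 h after the last session and each mouse gave 1 library of total RNA. Values are variance-stabilized, normalized for library size and on a log2 scale, so that a difference of 1 is close to a doubling for abundant transcripts such as mt-Rnr2 and is less sure for low ones. Gm42418 was low in part of the sham libraries, where it ranked as far down as 5522nd of 5544 genes by value, and its differences there need not be read as folds. Because rRNA had been removed with beads before library construction, a level here is the rRNA that remained in the library and not the amount in the tissue. In homogenized cortex, fewer cells of a type and less RNA per cell cannot be told apart.

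Ribosomal RNAs form the core of ribosomes and carry out decoding and peptide bond formation. mt-Rnr1 encodes the 12S rRNA of the small subunit and mt-Rnr2 the 16S rRNA of the large subunit of the mitochondrial ribosome, which makes the 13 proteins encoded in mitochondrial DNA, all of them parts of the respiratory chain or ATP synthase. Both are cut, together with the tRNAs around them, from long transcripts of the heavy strand. Cytoplasmic 18S rRNA is instead made in the nucleolus by RNA polymerase I from repeated ribosomal DNA, and Gm42418 is the name that the gene annotation gives to a copy of part of that unit.

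The positions of the genes show what each row of the table can hold. In GRCm38 (mm10), mt-Rnr1 (ENSMUSG00000064337) is a 955-base gene at chrM:70-1024 and mt-Rnr2 (ENSMUSG00000064339) a 1582-base gene at chrM:1094-2675, both on the plus strand, with 69 bases between them that hold a tRNA gene. Gm42418 (ENSMUSG00000098178) lies at chr17:39846958-39848788 on the plus strand, is 1831 bases long and is annotated as a long non-coding RNA. RefSeq lists Gm42418 as a synonym of the 18S gene copy Rn18s-rs5, at chr17:39846354-39848202. Gm42418 begins at base 605 of that copy, shares 1245 bases with it, which are 68.0% of Gm42418, and runs 586 bases past its end. The mitochondrial pair is poor in GC (35.8% for mt-Rnr1 and 35.4% for mt-Rnr2), whereas Gm42418 has 60.2%, against a median of 48.2% over all genes listed.

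Stretches of sequence that mt-Rnr1 and Gm42418 hold in common are shown because they tell which ribosomal subunit these rows count. Words of at least 13 bases shared by the pair on the same strand were searched, and there were 2 of them. Sequences are from GENCODE transcripts of GRCm38, plus strand, 5′ to 3′, with the shared word in capitals. The first word has 14 bases.
mt-Rnr1, chrM:878-937: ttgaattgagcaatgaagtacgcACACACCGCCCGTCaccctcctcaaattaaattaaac
Gm42418, chr17:39848031-39848090: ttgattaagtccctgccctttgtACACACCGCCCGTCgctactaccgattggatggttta
The second word has 15 bases and lies further towards the 3′ end of each.
mt-Rnr1, chrM:958-1017: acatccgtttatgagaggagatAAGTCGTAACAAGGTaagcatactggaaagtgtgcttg
Gm42418, chr17:39848134-39848193: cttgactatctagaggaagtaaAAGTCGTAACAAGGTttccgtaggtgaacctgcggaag
Both words belong to the conserved 3′ region of small-subunit rRNA. Of 5539 genes with a transcript sequence, 2 (0.0361%), mt-Rnr1 and Gm42418, held each word on either strand, and mt-Rnr2, a large-subunit rRNA, held neither. The annotated 18S copy ends inside Gm42418, with its last 10 bases in capitals here and the bases of the spacer after them.
Gm42418, chr17:39848168-39848227: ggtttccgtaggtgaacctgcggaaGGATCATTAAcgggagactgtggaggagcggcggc
mt-Rnr2 is followed without a gap by a tRNA gene, mt-Tl1, whose first 30 bases are in capitals after the last 30 of mt-Rnr2.
mt-Rnr2 and mt-Tl1, chrM:2646-2705: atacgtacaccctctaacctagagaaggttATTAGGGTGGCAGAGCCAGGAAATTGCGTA
A shared word is a description of the letters and not a measurement of the RNA.

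Reads of these genes can overlap those of other genes. Of the 31-base words of Gm42418, 96.3% occur in reverse in the annotated gene CT010467.1 and 49.6% in reverse in AY036118, which overlaps 923 of its bases on the opposite strand. mt-Rnr2 shares 2.71% of its words with Gm20594 in the same direction. None of these genes is in the table. The libraries were stranded, but whether counting used the strand is not given in the sources used here, so the level of Gm42418 is uncertain in that respect.

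mt-Rnr1, the small-subunit rRNA of mitochondria, had the 2nd largest difference of all genes that were higher in HF-HI, and its groups did not overlap. Its level ran from 11.57 through a median of 13.21 to 15.18 in sham and from 15.86 through 16.56 to 17.20 in HF-HI. The lowest HF-HI library exceeded the highest sham library, and the sham libraries were the more scattered. The means were 13.24 ± 1.06 (SD, n = 10) in sham, against 16.57 ± 0.46 (SD, n = 11) in HF-HI, a difference of 3.32, or 10.02-fold on this scale. By value within its library, not corrected for gene length, mt-Rnr1 ranked between 11th and 683rd of all genes in sham and between 4th and 6th in HF-HI. The 2 sham mice at the ends of the range were replicate 2, at 11.57, and replicate 6, at 15.18.

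mt-Rnr2, the large-subunit rRNA of mitochondria, differed by less and varied less among mice. Its level ran from 15.69 through 16.34 to 16.77 in sham and from 17.10 through 17.55 to 17.68 in HF-HI, again with no overlap. The means were 16.25 ± 0.36 (SD, n = 10) and 17.50 ± 0.16 (SD, n = 11), a difference of 1.24, or 2.37-fold, which ranked 13th among higher genes. mt-Rnr2 had the highest value of the whole table, not corrected for length, in every HF-HI library except replicates 11 and 9, which were the lowest of that group at 17.28 and 17.10. In sham it ranked between 3rd and 6th.

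Gm42418, which carries 18S sequence, was higher in HF-HI by its mean, but its groups overlapped. Its level ran from 8.17 through 9.66 to 12.39 in sham and from 10.14 through 10.76 to 17.49 in HF-HI. All 11 HF-HI libraries lay above the sham median, and 5 lay above the highest sham library. The means were 9.88 ± 1.32 (SD, n = 10) and 12.2 ± 2.39 (SD, n = 11), a difference of 2.33, which ranked 3rd among higher genes. By medians the difference was 1.11, and without HF-HI replicate 9, by means, 1.81. In that mouse Gm42418 had the 2nd highest value of its library.

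Over the whole table, 8.71% of genes were higher and 4.76% lower in HF-HI without overlap between the groups (13.5% together), and 32.6% were higher and 33.6% lower (66.3% together) at a limma p under 0.05 after Benjamini-Hochberg adjustment. Since the transcripts were picked on this contrast, nothing is read from their place in those shares. The only gene higher by more than mt-Rnr1 was Rps16, a ribosomal protein gene, at 3.55. Below Gm42418 came the immediate early gene Arc at 1.60, and beside mt-Rnr2 stood Pcdhgc5 at 1.24 and mt-Nd2 at 1.17.

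**Figure D1:**
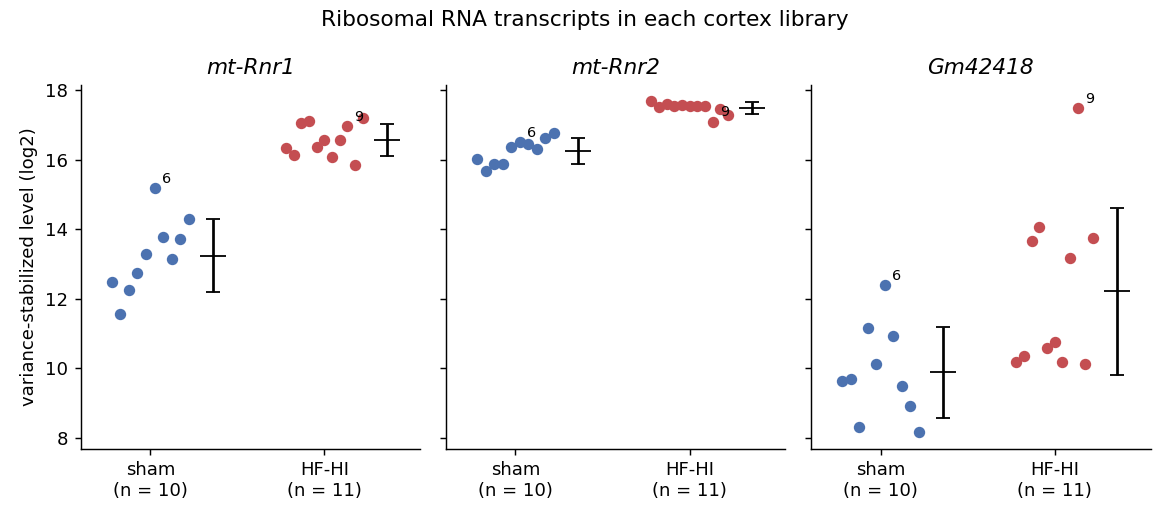
Variance-stabilized level (log2, vertical axis) of each transcript in each library, with sham in blue and HF-HI in red; black marks give the mean ± SD of the group, and sham replicate 6 and HF-HI replicate 9 are numbered. mt-Rnr1 and mt-Rnr2 do not overlap between the groups, while Gm42418 does and reaches 17.49 in HF-HI replicate 9.

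The measured part of the libraries held more rRNA in HF-HI. With values turned back from log2 and summed over all 5544 genes, the 3 transcripts made up 0.905% ± 0.266 (SD, n = 10) of the total in sham, against 2.85% ± 0.510 (SD, n = 11) in HF-HI, with ranges of 0.554% to 1.30% and 2.25% to 4.09%. mt-Rnr2 went from 0.772% to 1.71% and mt-Rnr1 from 0.119% to 0.935% by group means. Gm42418 held 0.0136% in sham and 0.202% in HF-HI, and that second mean rests on replicate 9, where Gm42418 alone held 1.66%. In that library mt-Rnr2 held 1.27% and mt-Rnr1 1.16%. These shares are not corrected for gene length.

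**Figure D2:**
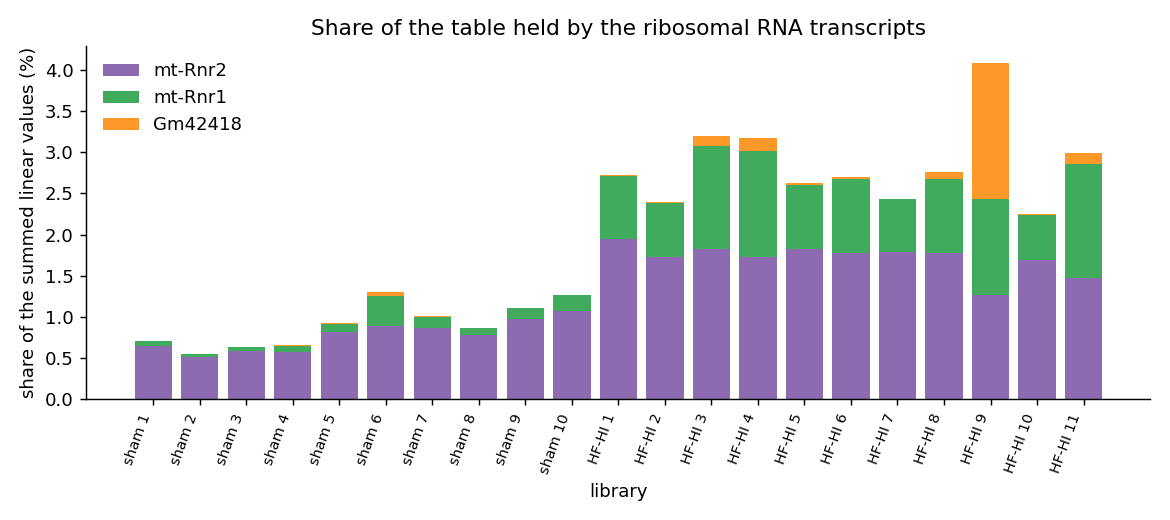
Share (%) of the summed linear values of all listed genes held by mt-Rnr2 (purple), mt-Rnr1 (green) and Gm42418 (orange), stacked for each of the 21 libraries. The sham bars end between 0.554% and 1.30% and the HF-HI bars between 2.25% and 4.09%, with Gm42418 a wide band only in HF-HI replicate 9.

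The mitochondrial rRNAs moved by unequal amounts, so their ratio shifted. Per kilobase of transcript, mt-Rnr2 stood above mt-Rnr1 by 2.28 ± 0.76 log2 units (SD, n = 10) in sham, a 4.86-fold excess, and in HF-HI by 0.20 ± 0.55 (SD, n = 11), a 1.15-fold excess. The ratio of single libraries ran from 1.51 to 10.5 in sham and from 0.639 to 1.85 in HF-HI, with sham replicate 6 alone reaching into the HF-HI range. In 4 HF-HI mice, replicates 3, 4, 9 and 11, mt-Rnr1 was the higher of the pair per kilobase. Against the mean of the 13 mitochondrial mRNAs, also per kilobase, mt-Rnr1 stood at -0.74 ± 0.95 log2 units in sham and 2.04 ± 0.33 in HF-HI, without overlap. mt-Rnr2 stood at 1.54 ± 0.30 and 2.24 ± 0.28 on that measure, with overlap. These ratios use the contrast that chose the genes and were not tested.

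Most mitochondrial mRNAs, which come from the same heavy-strand transcripts as the rRNAs, were higher in HF-HI by smaller amounts. Of the 13, 9 were higher and 2 lower by limma (adjusted p under 0.05), against 32.6% and 33.6% of all genes, with a median difference of 0.59 against -0.0086 over all genes. The 4 largest differences were those of mt-Nd2 (1.17, SE 0.138, adjusted p = 1.86e-07), mt-Atp8 (1.04, SE 0.0929, adjusted p = 4.58e-09), mt-Nd1 (1.03, SE 0.0877, adjusted p = 2.24e-09) and mt-Cytb (0.92, SE 0.0721, adjusted p = 6.97e-10). mt-Nd1 and mt-Nd2 are the first mRNAs after mt-Rnr2 and encode complex I subunits, mt-Atp8 encodes a subunit of ATP synthase, and mt-Cytb encodes cytochrome b of complex III. mt-Nd4l, mt-Nd4 and mt-Nd5, further complex I genes, were higher by 0.71, 0.64 and 0.59, and mt-Atp6, whose reading frame overlaps mt-Atp8, by 0.58. Of the complex IV genes, mt-Co2 was higher by 0.32, mt-Co3 lower by 0.10 (adjusted p = 0.000185) and mt-Co1 at 0.028 (adjusted p = 0.232). mt-Nd3 was lower by 0.18 (adjusted p = 0.00528). With each library's trend on GC content removed, 10 of the mRNAs were higher and none lower, mt-Co1 now among the higher at 0.16 (adjusted p = 6.32e-05), with mt-Co3 at 0.038 and mt-Nd3 at 0.026, neither past the threshold (adjusted p = 0.265 and 0.747), and under quantile normalization mt-Co1 was lower, at -0.42. mt-Co2 did not pass under quantile normalization (0.011, adjusted p = 0.898). mt-Nd6, encoded on the light strand, differed by 0.32 (adjusted p = 0.367), and by 0.74 (adjusted p = 0.00859) with relative depth as a covariate, an alternative chosen after seeing the data.

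**Figure D3:**
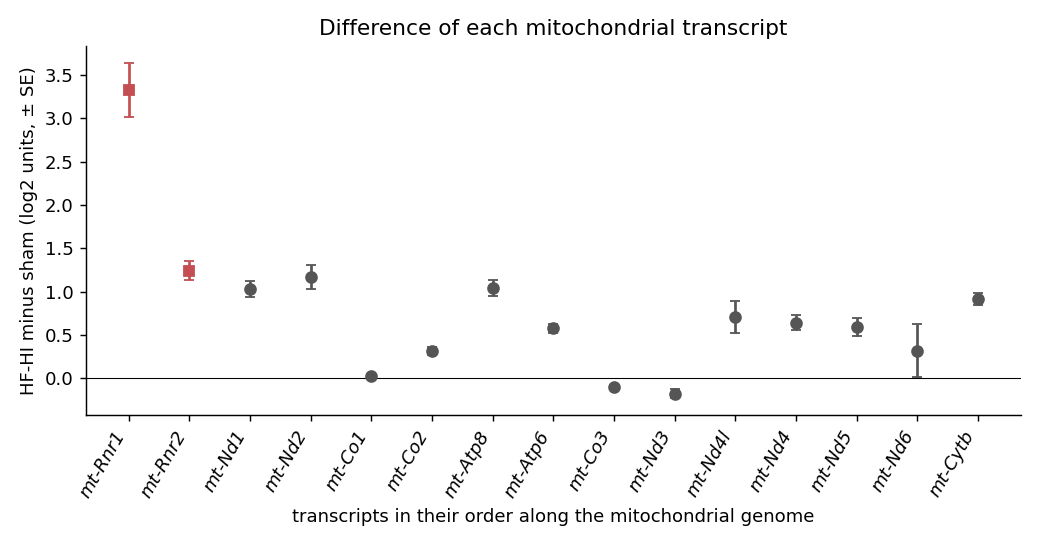
Difference between HF-HI and sham means (log2 units, ± the standard error from limma) of the mitochondrial rRNAs (red squares) and mRNAs (grey circles), in their order along the mitochondrial genome. mt-Rnr1 at 3.32 stands above every other transcript, mt-Rnr2 at 1.24 lies next to mt-Nd2 at 1.17, and mt-Co3 and mt-Nd3 lie below 0, though at 0.038 and 0.026 with the GC trend removed.

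Among mice of the same group, the mitochondrial rRNAs rose and fell together in sham, and the coefficient in HF-HI differed from that in sham. In sham, mt-Rnr1 and mt-Rnr2 correlated with Pearson's r of 0.873 (permutation test, two-sided, p = 0.00092, adjusted p = 0.0105 over 19 relations) and Spearman's rho of 0.927 (adjusted p = 0.00494). Without sham replicates 2 and 3, the farthest from the median, r was 0.760. In HF-HI, r was -0.402 (permutation test, p = 0.233, adjusted p = 0.402) and rho -0.20 (adjusted p = 0.815). The difference between these coefficients was 1.275 (values scaled within each group, group labels permuted, 100000 resamples, two-sided, p = 0.00313). This test was chosen after the values had been seen. The HF-HI coefficient rests on replicates 9 and 11, since without that pair r was 0.309. The difference was not tested without that pair. Replicates 9 and 11 were also the shallowest HF-HI libraries, with depths of 0.573 and 0.548 relative to the median library. Within HF-HI, mt-Rnr2 spanned only 17.10 to 17.68.

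**Figure D4:**
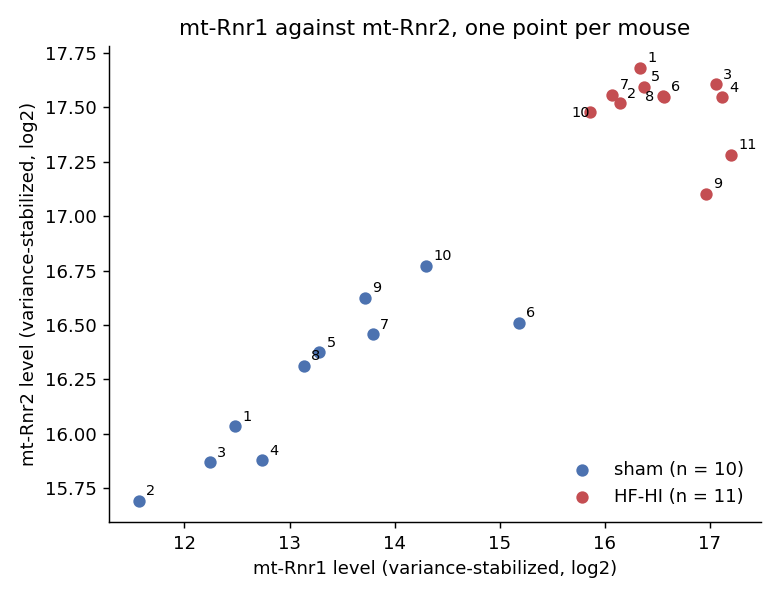
Level of mt-Rnr2 (vertical axis, log2) against mt-Rnr1 (horizontal axis, log2), with 1 numbered point per mouse, sham in blue and HF-HI in red. The sham points rise together (r = 0.873), while the HF-HI points form a separate set in which replicates 9 and 11 join high mt-Rnr1 with low mt-Rnr2.

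mt-Rnr1 also followed the mitochondrial mRNAs. Its correlation with their mean level was 0.876 in HF-HI (permutation test, two-sided, p = 0.0011, adjusted p = 0.0105), with a rho of 0.809 (adjusted p = 0.0369) and an r of 0.800 without replicates 4 and 11. HF-HI replicates 3, 4, 9 and 11 were the highest in both. They had mt-Rnr1 at 16.97 to 17.20 and the mRNA mean at 14.24 to 14.42, against at most 16.56 and 14.15 in the others. The HF-HI coefficient takes in the gap between these sets, also without replicates 4 and 11. No coefficient was computed within either set. In sham the r of mt-Rnr1 with this mean was 0.695 (adjusted p = 0.0756). For mt-Rnr2 the values were 0.561 in sham (adjusted p = 0.262) and -0.531 in HF-HI (adjusted p = 0.276). In a limma fit over all libraries with the group as a term, the level of mt-Rnr1 was positively associated with 4 of the 13 mRNAs, mt-Nd1, mt-Nd2, mt-Atp8 and mt-Cytb, which are also the 4 that differed most between the groups, against 4.01% of all genes. Without sham replicate 2 none of the 4 passed (adjusted p from 0.0542 to 0.144), with slopes from 0.13 to 0.30 against 0.16 to 0.31 with it. mt-Rnr2 was positively associated with mt-Atp6 and mt-Cytb (adjusted p = 0.0396 and 0.0464), against 3.64% of all genes. Those calls held in 13 and 7 of 21 leave-one-out fits. Neither mitochondrial rRNA was associated with any of the 13 negatively. Gm42418 was positively associated with 2 of the 13 and negatively with 0, against 6.04% and 7.11% of all genes. After subtraction of group means, its r was highest with mt-Nd6 (0.818) and mt-Nd2 (0.616) and lowest with mt-Nd3 (-0.542). How its calls among these mRNAs fare without HF-HI replicate 9 was not examined.

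Depth and base composition moved with some of these levels. Relative depth, read from the spacing of values within a library, was 0.580 to 1.26 in sham and 0.548 to 1.64 in HF-HI. The means were 0.864 in sham and 1.15 in HF-HI, and 5 of the 11 HF-HI libraries lay above the highest sham library. The slope of a library's values on the GC content of the genes was -0.103 ± 0.0761 log2 units per 10% GC (SD, n = 10) in sham, against 0.0935 ± 0.0586 (SD, n = 11) in HF-HI. In HF-HI, mt-Rnr2 correlated with that slope at an r of 0.908 (permutation test, adjusted p = 0.0227), which was 0.347 without replicates 9 and 11, and rho did not pass (0.609, adjusted p = 0.219). In HF-HI, r with log2 relative depth was 0.747 for mt-Rnr2 and -0.687 for mt-Rnr1 (adjusted p = 0.0756 for each). The part of depth and base composition in the group differences was not tested. The difference of mt-Rnr1 was 3.53 with depth as a covariate and 3.50 with the GC trend removed, and that of mt-Rnr2 1.19 and 1.42. For Gm42418, whose GC content is high, the same values were 3.37 and 2.06.

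Gm42418 divided the HF-HI mice. Replicates 1, 2, 5, 6, 7 and 10 had levels between 10.14 and 10.76, all inside the sham range. After a gap of 2.41 came replicates 8, 3, 11 and 4, at 13.17, 13.68, 13.75 and 14.06, and after a further 3.43 replicate 9. No coefficient is given for Gm42418 within HF-HI alone because the values fall into separate sets. Replicates 3, 4, 9 and 11, the highest in Gm42418, were also the highest HF-HI libraries in mt-Rnr1. Their mt-Rnr1 levels were 16.97 to 17.20, against 16.56 in replicate 8. In sham, r of Gm42418 was 0.372 with mt-Rnr1 and -0.0228 with mt-Rnr2 (permutation tests, adjusted p = 0.463 and 0.946). Without sham replicates 4 and 6 the first was -0.0413.

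Lars2, the gene of the mitochondrial leucyl-tRNA synthetase, had the pattern most like that of Gm42418. It is known for a stretch resembling ribosomal DNA in its transcript, although it shared no 31-base word with Gm42418. After group means were subtracted, r over the 21 libraries was 0.92. The 5 HF-HI mice highest in Gm42418 were also the 5 highest in Lars2, at 9.64, 9.77, 10.01, 10.45 and 15.35 for replicates 3, 11, 4, 8 and 9, and the other 6 lay between 7.19 and 7.52. Sham ran from 7.18 to 8.75, with replicate 6, the highest in Gm42418, also the highest in Lars2, and r within sham was 0.893. Lars2 rose by 0.85 for each unit of Gm42418 (limma with the group as a term, adjusted p = 6.35e-07), and by 0.60 without HF-HI replicate 9 (adjusted p = 9.52e-06). Between the groups, Lars2 differed by 1.33 on average (adjusted p = 0.102 from limma) and by 0.025 by medians. With relative depth as a covariate it differed by 2.18 (adjusted p = 0.00335), and without HF-HI replicates 9 and 11 by 0.55 (adjusted p = 0.232).

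Gm26917, the neighbour on the 5′ side of the same ribosomal DNA copy, had an r of 0.61 with Gm42418 after subtraction of group means. It lies at chr17:39843013-39846341, ends 12 bases before the 18S gene copy and is annotated as a long non-coding RNA. Its level ran from 10.33 through 12.20 to 13.03 in sham and from 11.64 through 12.80 to 14.13 in HF-HI, with overlap. The means were 12.12 ± 0.77 and 13.07 ± 0.74, a difference of 0.95 (limma, adjusted p = 0.0075), which without the GC trend was 0.50 (adjusted p = 0.104). Its slope on Gm42418 within groups was 0.23 (limma, adjusted p = 0.023), and without HF-HI replicate 9 it was 0.28 (adjusted p = 0.118). Per kilobase, the level of Gm42418 minus that of Gm26917 was -1.38 ± 1.28 log2 units in sham (SD, n = 10), 0.010 ± 1.87 in HF-HI (SD, n = 11) and 4.35 in HF-HI replicate 9.

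**Figure D5:**
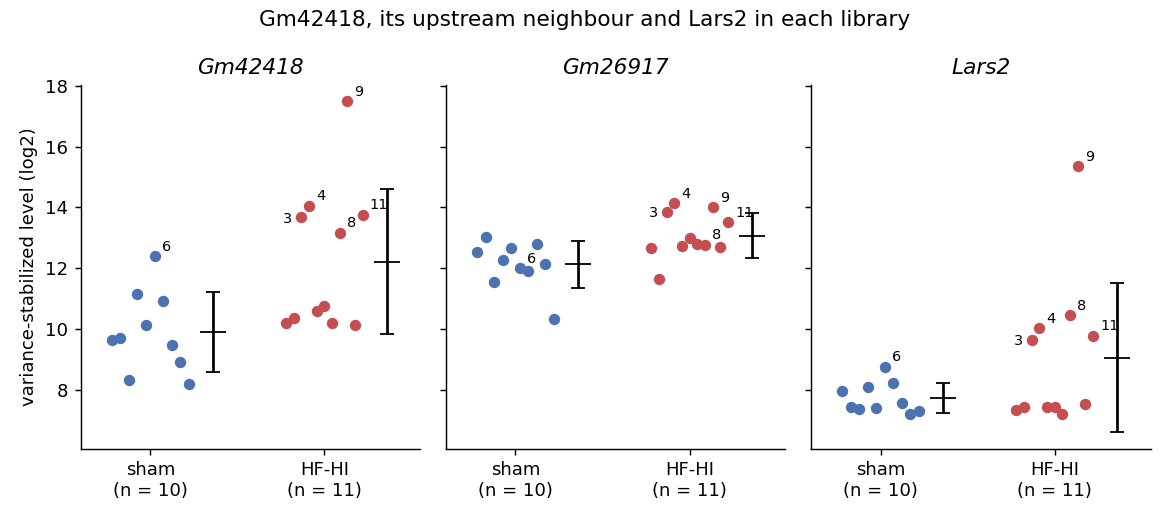
Variance-stabilized level (log2, vertical axis) of Gm42418, Gm26917 and Lars2 in each library, with sham in blue, HF-HI in red and the mean ± SD of each group in black; sham replicate 6 and HF-HI replicates 3, 4, 8, 9 and 11 are numbered. The same 5 HF-HI mice stand above the rest in Gm42418 and in Lars2.

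Other genes followed the rRNAs within groups to different extents. At an adjusted p under 0.05 in limma with the group as a term, 336 of 5543 genes were associated with mt-Rnr1 (6.06%), 222 positively (4.01%) and 114 negatively (2.06%). For mt-Rnr2 there were 258 (4.65%), 202 positive (3.64%) and 56 negative (1.01%), and for Gm42418 729 (13.2%), 335 positive (6.04%) and 394 negative (7.11%). These counts turned on single mice. Without sham replicate 2 the count for mt-Rnr1 was 1 and without sham replicate 7 207, and without HF-HI replicate 9 the count for Gm42418 was 33 and without sham replicate 6 346. The count for mt-Rnr2 fell to 114 without sham replicate 3, 120 without sham replicate 9, 122 without sham replicate 10 and 160 without sham replicate 2, and grew to 453 without sham replicate 6 and 403 without HF-HI replicate 9.

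The genes most like each rRNA after subtraction of group means were different for the 3 transcripts. For mt-Rnr1 they were Kbtbd7, Set, Hnrnph2, Tpm3 and Supt16, with r from 0.828 to 0.908 over 21 libraries. Set and Supt16 encode histone chaperones, Hnrnph2 a splicing regulator and Tpm3 a tropomyosin. Among these 5, Hnrnph2 and Supt16 had r of 0.926 and 0.970 in sham and 0.281 and 0.307 in HF-HI, whereas Kbtbd7 had 0.931 and 0.853. Ap2s1, Rpl18, Camkk1, Zfyve28 and Gm16286 went the other way most, from -0.774 to -0.753. For mt-Rnr2 the most like were Rpl11, Atp6v1g2, Stx1a, Pcdhgc5 and Csnk2b, from 0.864 to 0.921, which encode a ribosomal protein, a proton pump subunit, a syntaxin of the synapse, a protocadherin and a casein kinase subunit. Rpl11 rose by 1.04 for each unit of mt-Rnr2 (limma, adjusted p = 2.24e-06), and between 0.990 and 1.11 with each library left out. The least like were St7l, Tmpo, Aasdhppt, Slco1a4 and Arl5b, from -0.779 to -0.762. For Gm42418, Lars2 was followed by the small nucleolar RNA gene Gm22988, the RNA-binding protein gene Hnrnpa2b1 and Nus1, from 0.819 to 0.841. Fam234b, Rtf2, Tmem59l, Snap47 and Apbb1 lay at the other end, from -0.871 to -0.823. These coefficients over 21 libraries take in the separate sets of Gm42418 values in HF-HI, replicate 9 among them. In sham alone, r was 0.647 for Gm22988, 0.779 for Hnrnpa2b1 and 0.660 for Nus1. At the other end it ran from -0.919 to -0.649 in sham.

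Few genes that make or process rRNA were in the table. Of 66 listed nucleolar genes of rRNA synthesis and processing, 12 were tested, and 4 were higher and 3 lower in HF-HI by limma, with a median difference of 0.053. That 7 of 12 were called sets the list near the 66.3% of all genes, so the count is no result about the list. Nop56, a core protein of box C/D small nucleolar particles, rose by 0.36 (adjusted p = 8.69e-07), the processing factor gene Rrp1 by 0.28 (adjusted p = 0.000105) and Ubtf, the RNA polymerase I factor that binds ribosomal DNA, by 0.23 (adjusted p = 2.86e-05). Rrp1 did not pass with the GC trend removed, at 0.10 (adjusted p = 0.171). The lower genes were Xrn2, a nuclear exonuclease (-0.22), the RNA polymerase I initiation factor gene Rrn3 (-0.16) and Heatr1 (-0.12). Within groups Ubtf and Nop56 were positively associated with mt-Rnr2 (adjusted p = 0.00798 and 0.0309) and did not pass with Gm42418 (adjusted p = 0.905 and 0.982). The call of Nop56 held in 17 of 21 leave-one-out fits, ending without sham replicate 2, 3, 9 or 10, and that of Ubtf in all 21. With Gm42418, nucleolin (Ncl) was positively and Polr1a, the large subunit of RNA polymerase I, negatively associated (adjusted p = 0.00309 and 0.0135). Neither passed without HF-HI replicate 9 (adjusted p = 0.16 and 0.303) or without replicates 9 and 11 (adjusted p = 0.266 and 0.432).

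Of 54 listed genes of mitochondrial RNA metabolism, 4 were tested, 1 was higher and 2 were lower by limma, with a median of -0.036. Of all genes 32.6% were higher and 33.6% lower, so the count is no result about the list. Ptcd3, a protein of the mitochondrial small subunit, fell by 0.28 (adjusted p = 6.19e-06) and Lrpprc, which stabilizes mitochondrial mRNAs, fell by 0.18 (adjusted p = 3.73e-05). Fastk was 0.11 higher (adjusted p = 0.0339), was called in 13 of 21 leave-one-out fits, and was lower by 0.10 with the GC trend removed (adjusted p = 0.00835).

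Among 10 listed loci with ribosomal DNA-like stretches, 4 were tested, with Gm26917 higher and Cdk8 lower by 0.14 (limma, adjusted p = 0.00439), a call that ended when the GC trend was removed (-0.049, adjusted p = 0.241). Other RNAs with a form that lacks a standard poly(A) tail, called untailed here, were compared because rRNA lacks it too. A level per gene does not separate such forms from others. Of 11 listed, 5 were tested and 2 were higher, Neat1 by 0.41 (adjusted p = 2.56e-05) and Malat1 by 0.19 (adjusted p = 2.32e-05), both nuclear long non-coding RNAs. Under quantile normalization Malat1 was instead lower by 0.11 (adjusted p = 8.14e-05), and 1 of the 5 was higher and 2 lower. Of all genes 66.3% were called, 32.6% higher and 33.6% lower. Neither the count of ribosomal DNA-like loci nor that of untailed RNAs is therefore a result about its list. Rn7sk, the RNA that holds the elongation factor P-TEFb inactive, differed by 0.73 (adjusted p = 0.205). Without HF-HI replicates 9 and 11 it differed by 1.16 (adjusted p = 0.0313), and with relative depth as a covariate by 0.060 (adjusted p = 0.900). Within groups its level fell as that of Gm42418 rose (slope -0.47, adjusted p = 0.00512), which did not pass without replicate 9 (-0.45, adjusted p = 0.0951) or without replicates 9 and 11 (-0.42, adjusted p = 0.236). Rpph1 and Rmrp, the RNAs of the processing enzymes RNase P and RNase MRP, differed by -0.049 and -0.19 (adjusted p = 0.741 and 0.208), and with the GC trend removed both were lower, by 0.46 and 0.54 (adjusted p = 0.00113 and 0.00012).

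Of the cell type markers, all 4 astrocyte and 5 of 6 excitatory neuron markers were in the table, at levels between 8.41 and 15.8. The striatal markers Drd1 and Adora2a were there too, at means of 9.90 and 8.75 in sham and 9.55 and 8.67 in HF-HI, and Drd2 was not listed. Of the erythroid markers, Hba-a2 and Hbb-bs had means of 8.24 and 9.43 in sham and 8.67 and 9.48 in HF-HI. The dentate gyrus marker Prox1 was not among the genes listed. The choroid plexus marker Ttr ran from 6.16 to 13.3 over the libraries. The part of these other cells in the rRNA levels was not tested.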

How the data were processed

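Cortical RNA of 10 sham mice and 11 mice given HF-HI was depleted of rRNA with Ribo-Zero Gold beads and made into stranded libraries. The authors aligned reads to mm10 with STAR, counted them per transcript with eXpress and normalized them with DESeq2 (versions not given in the sources used here). The deposited values are variance-stabilized log2 values, 1 per Ensembl gene and library, for 5544 genes. With no counts, no count model could be used, and total depth is unknown. Relative depth was read from the spacing of linear values between 500 and 600. Which libraries shared a sequencing pool is not given in the sources used here. Groups came from the labels.

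Symbols, positions, GC content and sequences were from GENCODE M21 (GRCm38) and RefSeq, with a symbol and a GC content for 5539 genes. Groups, and associations with each rRNA with the group as a term, were fitted with limma 3.58.1 in R 4.3.3 (two-sided moderated test from eBayes with trend, adjusted over all genes by Benjamini-Hochberg, threshold 0.05). Correlations used permutation tests with 100000 resamples in scipy 1.17.1. The fits were tested on simulated data. GC trends were removed with lowess (span 0.3). The genes and lists were chosen with earlier results of these data known. Named genes were the 3 rRNA genes, the mitochondrial mRNAs, the 5 most and 5 least like each rRNA, and up to 3 called genes of largest difference per list; Lars2, Rn7sk, Rpph1, Rmrp, Ncl, Polr1a, Xrn2, Rrn3, Heatr1, and the neighbours in rank (Rps16, Arc) were named after their values were seen. 1 gene that the rule names is not reported here.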

Additional observations from a re-analysis of the deposited data

Results flagged for a closer look

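The coefficient of mt-Rnr1 with mt-Rnr2 over all libraries differed between the groups, by a test chosen after the values had been seen. Pearson's r was 0.873 in sham and -0.402 in HF-HI. The difference was 1.275 (values scaled within each group, group labels permuted, 100000 resamples, two-sided, p = 0.00313). The HF-HI coefficient was 0.309 without replicates 9 and 11, and the difference was not tested without them. Of 13 measures examined for a library far from the other 9 of sham by Dixon's test, 0 had one, and HF-HI, with 11 libraries, was not examined in this way.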

How the results depend on the processing

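Apart from leaving out single libraries, 92 alternative values were computed for the rRNA differences, correlations and counts of genes. Of these, 82 kept their direction and side of the threshold or stayed near the reported value, and 0 reversed. A difference was near if it moved by less than the SD within groups, 1.96 for Gm42418. By that rule its 1.11 by medians and 3.37 with depth as a covariate were near 2.33. A count was near within a set ratio, could not be labelled reversed, and can hold while its genes turn. For 30 single genes named by their group difference, 210 alternative values were computed, of which 180 kept direction and call, 11 lost the call, 10 gained one and 9 turned direction. In 3 of those 9 the gene was called both ways. They were Malat1 at -0.107 under quantile normalization and Fastk at -0.0998 with the GC trend removed, and at -0.105 with the block as well. The others were mt-Co1, at -0.0239 with library medians centred and -0.418 under quantile normalization, and mt-Co3 and mt-Nd3, at 0.0382 and 0.0265 with the GC trend removed and 0.0421 and 0.0270 with the block as well. Quantile normalization lowered the difference of mt-Rnr2 to 0.909, and the cause was not tested for this or the other values below. With the GC trend removed, 0 rDNA-like loci and 4 untailed RNAs were called, and with the lowest quartile of genes left out, so that fewer were tested, 1 rDNA-like locus and 1 gene of mitochondrial RNA metabolism. An adjusted p under 0.1 gave 645 genes associated with mt-Rnr1, 474 with mt-Rnr2 and 1247 with Gm42418. Without both shallowest HF-HI libraries, an alternative chosen after seeing the data like that of depth as a covariate, 436 genes were associated with mt-Rnr2 and 2 with Gm42418.

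With each library left out in turn, the difference ran from 3.14 to 3.54 for mt-Rnr1, 1.18 to 1.30 for mt-Rnr2 and 1.81 to 2.61 for Gm42418. The genes associated numbered 1 to 459 for mt-Rnr1, 114 to 453 for mt-Rnr2 and 33 to 968 for Gm42418. The r of Gm42418 in sham ran from -0.105 to 0.639 with mt-Rnr1 (-0.105 without sham replicate 6) and from -0.264 to 0.270 with mt-Rnr2 (0.115, 0.0769 and 0.270 without sham replicates 4, 9 and 10). That of mt-Rnr1 with mt-Rnr2 ran from 0.818 to 0.962 in sham and from -0.523 to -0.254 in HF-HI. The called mitochondrial RNA metabolism genes numbered 2 to 4, and the mitochondrial mRNAs 11 in each fit. Same-numbered sham and HF-HI libraries deviated together with r from -0.310 to 0.364 over 10 pairs, of which 4 were above 0.1. Differently numbered libraries were not compared, so whether the numbers pair mice was not tested. With the replicate number as a block, the differences were 3.26, 1.27 and 2.18 for mt-Rnr1, mt-Rnr2 and Gm42418, and 11 mitochondrial mRNAs and 2 genes of mitochondrial RNA metabolism were called. The unknown total depth and the 5544 genes kept limit what can be seen.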
